A study of Mus musculus with 12 samples.

Results

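The genes of the T cell receptor complex and of its proximal signalling were followed through priming and costimulation of CD8+ T cells. The members were fixed by name as 10 genes: Cd3d, Cd3e, Cd3g and Cd247, which encode the signalling chains of the receptor complex, Cd8a and Cd8b1, which encode the coreceptor, Lck, Zap70 and Lat, which encode the first kinases and the adaptor of the cascade, and Ptprc, which encodes the phosphatase CD45. All 10 of them were found among the 55536 annotated genes of the count table, and all 10 passed the filter on low counts that kept 18817 genes. RNA-seq was done on OT-I Tg cells of the C57BL/6J strain, which carry transgenic receptor chains specific for the ovalbumin peptide SIINFEKL and came from donors that lack Rag1 or Rag2. Naive libraries (n = 2) were made from OT-I mice without transfer. For the Ag libraries (n = 5) OT-I cells were transferred into C57BL/6J recipients that then received the peptide with rat IgG, and for the Ag+Costim libraries (n = 5) the recipients received the peptide with agonist antibodies against OX40 (CD134) and 4-1BB (CD137). The labels put the collection of spleen and lymph nodes at 4 days after stimulation, and the ages of single animals were not given. Every library was called a biological replicate in the study's methods. Transferred cells were sorted for CD8, CD45.1 and the Vα2 and Vβ5 receptor chains, so CD8, CD45 and the receptor chains were themselves part of the gate. The study's methods do not state which CD8 chain the antibody binds.

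The αβ T cell receptor has no signalling part of its own. It is carried to the surface with CD3δε and CD3γε dimers and a CD3ζ (Cd247) homodimer, whose cytoplasmic motifs are phosphorylated by Lck, a kinase held by the tails of CD8 and CD4. ZAP-70 then binds these motifs and phosphorylates the adaptor LAT, and CD45 keeps Lck in an activatable state by removing an inhibitory phosphate. In CD8+ T cells, internalisation of the receptor and lower levels of the coreceptor are known to follow strong stimulation.

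Gene counts per library summed to between 42342577 and 43491402 in Naive, between 24006053 and 45980125 in Ag and between 40028682 and 49294934 in Ag+Costim. The Ag replicate 4 library was the shallowest. The members held 1.22% to 1.24% of all counts in Naive, 1.11% to 1.29% in Ag and 0.716% to 0.930% in Ag+Costim. Markers fixed for other cells were summed per library in CPM (counts scaled to library size, here after TMM normalisation). The 8 B cell markers summed to 1095 and 1097 CPM in Naive, 1166 to 1885 CPM in Ag and 602 to 1231 CPM in Ag+Costim, and most of this sum was Ighm. Of these 8 genes, 6 were higher in Ag than in Naive. Between Ag+Costim and Ag, 5 were lower and 1 was higher, while Pax5 stayed at or below 0.604 CPM. Over all genes, 24.2% were higher and 22.5% lower in Ag against Naive, and 26.6% and 26.5% in Ag+Costim against Ag. The shallow Ag replicate 4 library also had the highest erythroid sum. All 6 erythroid markers were lower in Ag+Costim (sum of 14.5 to 223 CPM) than in Ag (626 to 6379 CPM). The 4 markers of CD4 T cells summed to at most 27.6 CPM, against at least 3976 CPM for the 6 markers of CD8 T cells, 5 of which are members. The 5 NK cell markers summed to between 65.0 and 66.9 CPM in Naive, between 70.4 and 193 CPM in Ag and between 182 and 419 CPM in Ag+Costim, of which 2 passed the test upward and 1 downward between Ag+Costim and Ag. The 6 dendritic cell markers summed to at most 7.18 CPM in Naive, 12.4 to 33.1 CPM in Ag and 31.4 to 149 CPM in Ag+Costim. Of these, 3 were higher in Ag than in Naive and 1 was higher in Ag+Costim than in Ag. Most of the Ag+Costim sum was Itgax (25.6 to 141 CPM). The 9 myeloid markers summed to at most 68.4 CPM in Naive and to between 82.2 and 213 CPM in Ag, where 5 were called higher. In Ag+Costim they summed to between 98.2 and 182 CPM, with 3 called higher and 1 called lower than in Ag. The 5 γδ markers, most of them Trdc by level, summed to between 409 and 472 CPM in Naive, between 177 and 239 CPM in Ag, where 4 were called lower, and between 130 and 183 CPM in Ag+Costim. The core's sheet lists an input amount of 0 for every Ag library, 10 for every Ag+Costim library and 8.5 or 10.7 for Naive, with no unit. The part that these markers and the input played in the results was not tested. In bulk RNA, fewer cells of a type and less RNA per cell cannot be told apart.

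**Figure D1:**
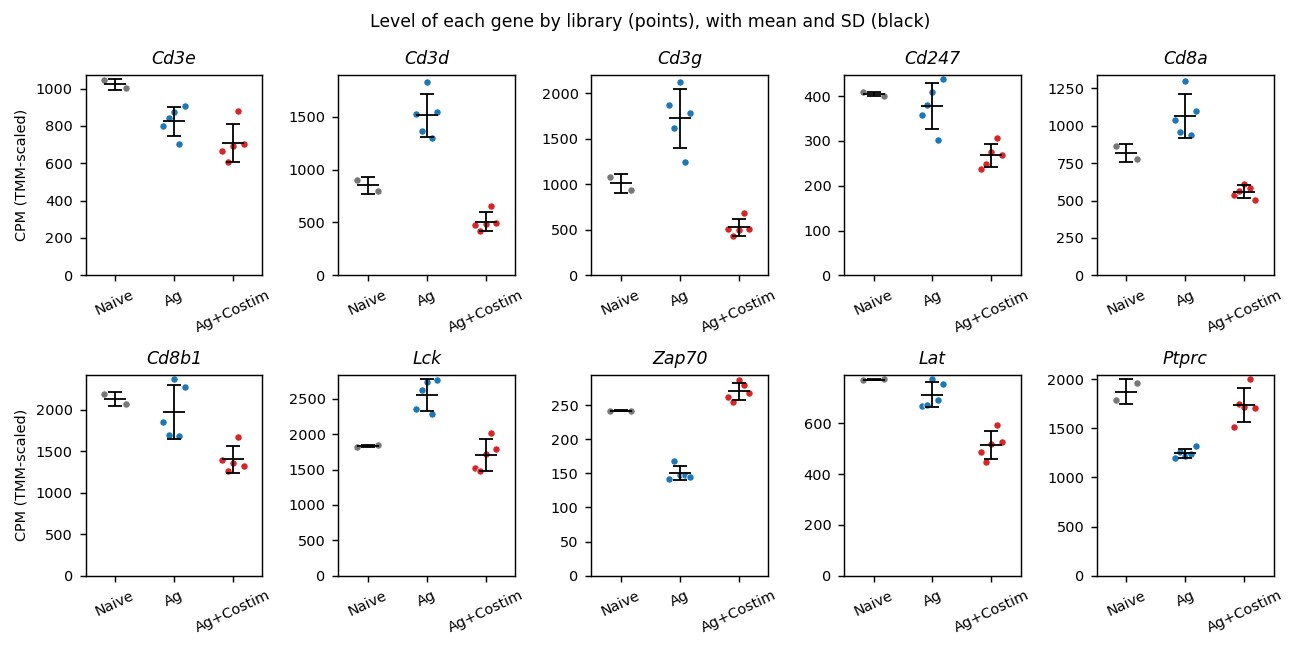
Level of each of the 10 genes by library on the TMM-scaled CPM scale, with 1 panel per gene and a linear axis from 0. Points are libraries (Naive n = 2, Ag n = 5, Ag+Costim n = 5) and black marks are the mean and SD. Cd3d and Cd3g peak in Ag and are lowest in Ag+Costim, while Zap70 and Ptprc are lowest in Ag.

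Cd3d and Cd3g encode the partners of CD3ε and lie head to head on chromosome 9. Cd3g (chr9:44969572-44980431, minus strand) and Cd3d (chr9:44981786-44987339, plus strand) have 1354 bases between their start sites in mm10, and Cd3e (chr9:44998740-45009627, minus strand) lies 11400 bases beyond the end of Cd3d. The 250 bases before the start sites of this pair are shown because their transcripts moved together, as RefSeq gives them for GRCm38.p6. Capitals mark the E-box letters CAGGTG on either strand, which were searched together with TGTGGT (the RUNX core) and TATAAA, and matches of these motifs did not overlap each other in the sequences shown.
Cd3d (chr9:44981536-44981785, plus strand): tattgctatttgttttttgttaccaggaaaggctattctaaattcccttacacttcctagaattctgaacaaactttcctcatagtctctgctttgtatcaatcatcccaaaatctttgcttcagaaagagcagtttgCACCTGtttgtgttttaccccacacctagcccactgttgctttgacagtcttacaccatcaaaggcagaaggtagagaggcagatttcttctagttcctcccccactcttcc
Cd3g (chr9:44980432-44980681, minus strand): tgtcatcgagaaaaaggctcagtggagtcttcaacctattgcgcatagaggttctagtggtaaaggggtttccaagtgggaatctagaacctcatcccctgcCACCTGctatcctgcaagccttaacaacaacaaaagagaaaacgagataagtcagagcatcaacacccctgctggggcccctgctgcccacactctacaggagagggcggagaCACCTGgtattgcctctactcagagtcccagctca
The Cd3d window holds the E-box once, 112 bases before the start, and the Cd3g window at both 148 and 35 bases before it. The letters CAGGTG occur in 17.2% of all 32851 promoter windows of that length, TGTGGT in 14.0% and TATAAA in 12.4%, so a match describes the sequence and no bound factor.

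Cd3d was measured at 905 and 795 CPM in Naive, at 1526, 1367, 1827, 1301 and 1542 CPM in Ag, and at 480, 423, 486, 657 and 492 CPM in Ag+Costim. Every Ag library was above both Naive libraries, and every Ag+Costim library was below them. Cd3d rose 1.78-fold from Naive to Ag (log2 fold change 0.83 ± 0.17 SE, adjusted p = 0.00132) and was 2.98-fold lower in Ag+Costim than in Ag (-1.58 ± 0.13, adjusted p = 3.15e-07), by edgeR's quasi-likelihood test. Cd3g measured 1086 and 938 CPM in Naive, 1868, 1615, 2124, 1251 and 1786 CPM in Ag, and 511, 434, 503, 682 and 513 CPM in Ag+Costim. Its 3 groups did not overlap either. Cd3g rose by 0.77 ± 0.20 on the log2 scale in Ag (adjusted p = 0.00585) and was 3.27-fold lower in Ag+Costim than in Ag (-1.71 ± 0.15, adjusted p = 5.74e-07), the largest change of any member. Against Naive, the log2 fold change in Ag+Costim was -0.74 ± 0.16 for Cd3d and -0.94 ± 0.18 for Cd3g.

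Cd3e, which encodes the chain shared by both CD3 dimers, gave a different set of calls. Its levels were 1044 and 1001 CPM in Naive, 797, 844, 874, 705 and 907 CPM in Ag, and 665, 606, 691, 878 and 702 CPM in Ag+Costim. Ag lay below Naive in every library, and Ag and Ag+Costim overlapped. The log2 difference was -0.31 ± 0.13 for Ag against Naive (adjusted p = 0.0760) and -0.22 ± 0.10 for Ag+Costim against Ag (adjusted p = 0.0882), and only Ag+Costim against Naive passed the test (-0.53 ± 0.13, adjusted p = 0.00452). Cd3e overlaps 2 annotated genes, 1 of them on the opposite strand, and Cd247 overlaps 6, and the strand used in counting is not stated, so reads of such neighbours could not be told apart. Cd247, the ζ chain, measured 408 and 401 CPM in Naive, 358, 381, 410, 303 and 438 CPM in Ag and 238, 249, 275, 307 and 268 CPM in Ag+Costim. It did not pass the test between Ag and Naive (-0.10 ± 0.14, adjusted p = 0.584) and fell in Ag+Costim against Ag (-0.50 ± 0.10, adjusted p = 0.00105), where a single Ag library, replicate 4, reached into the Ag+Costim range.

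The coreceptor genes are neighbours on chromosome 6 (Cd8b1 at chr6:71322788-71337494 and Cd8a at chr6:71373427-71379173, both plus strand). Cd8a measured 861 and 776 CPM in Naive, 1041, 959, 1302, 935 and 1097 CPM in Ag, and 537, 563, 609, 585 and 504 CPM in Ag+Costim. The highest levels were in Ag and the 3 groups did not overlap. Cd8a was 1.30-fold higher in Ag than in Naive (0.38 ± 0.13, adjusted p = 0.0294) and 1.91-fold lower in Ag+Costim than in Ag (-0.93 ± 0.10, adjusted p = 3.41e-06). Cd8b1 measured 2186 and 2071 CPM in Naive, 1678 to 2363 CPM in Ag and 1261 to 1669 CPM in Ag+Costim. Its Ag and Naive libraries overlapped (-0.11 ± 0.15, adjusted p = 0.579), and it was 1.41-fold lower in Ag+Costim than in Ag (-0.49 ± 0.12, adjusted p = 0.00256).

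Because CD8α can pair with itself or with CD8β, the balance of the coreceptor transcripts was taken as the log2 ratio of Cd8b1 to Cd8a counts within each library. The ratio was 1.34 and 1.42 in Naive, 0.83, 0.82, 0.86, 0.84 and 1.05 in Ag, and 1.38, 1.16, 1.16, 1.51 and 1.39 in Ag+Costim. All Ag libraries lay below all libraries of both other groups, which overlapped each other. The ratio was 0.44 higher in Ag+Costim (1.32 ± 0.15 SD, n = 5) than in Ag (0.88 ± 0.10 SD, n = 5), with an exact two-sided permutation p = 0.00794, the smallest that 5 against 5 libraries allow. For Ag against Naive the difference was -0.50, and the exact permutation p of 0.0952 is the smallest that 5 against 2 libraries allow. For Ag+Costim against Naive the difference was -0.06 (exact permutation p = 0.762). The Cd8a counts include the non-coding retained-intron transcript Cd8a-203, with mean shares of 34.9% in Naive, 27.5% in Ag and 17.3% in Ag+Costim. These differences therefore hold for all Cd8a counts, and a ratio over coding transcripts alone was not tested. Without Cd8a-203 the Ag and Ag+Costim libraries would overlap, and every Ag+Costim library would lie below both Naive ones. In Ag replicate 5, 94485 Cd8b1 counts stood beside 14350 of Cd8a-201 and 19043 of Cd8a-202. In Ag+Costim replicate 2, 56878 stood beside 10422 and 10759.

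Transcripts were also read within the genes, since a gene total hides which form is made. Cd8a is made with or without a short exon of 31 bases, exon 4, printed here because it separates the annotated coding forms Cd8a-201 (741 coding bases) and Cd8a-202 (666 coding bases).
Cd8a exon 4 (chr6:71375888-71375918, plus strand, mm10): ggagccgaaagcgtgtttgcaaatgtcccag
Cd8a-202, without it, held 24.3% and 31.1% of the counts in Naive, 40.6%, 37.2%, 40.4%, 36.0% and 41.8% in Ag, and 46.6%, 42.3%, 40.7%, 39.4% and 42.4% in Ag+Costim. It was higher in every stimulated library than in Naive, and its usage test (edgeR's diffSpliceDGE, which compares a transcript's change with that of its gene) was not passed in any comparison (adjusted p = 1.00 for Ag against Naive). The deposited Psi, a fraction that estimates how often the exon is included, was 0.559 in Ag and 0.552 in Ag+Costim for this exon, with 1 value per group and so no error.

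Lck measured 1822 and 1845 CPM in Naive, 2353, 2627, 2731, 2283 and 2767 CPM in Ag, and 1519, 1476, 1718, 2022 and 1794 CPM in Ag+Costim. Ag was above both other groups in every library. Lck rose 1.39-fold in Ag (0.48 ± 0.13, adjusted p = 0.00931) and was lower in Ag+Costim than in Ag (-0.58 ± 0.10, adjusted p = 1.99e-04), and it did not pass the test between Ag+Costim and Naive (-0.10 ± 0.13, adjusted p = 0.511). Zap70, the kinase that Lck activates, had its lowest level where Lck had its highest. It measured 242 and 241 CPM in Naive, 142, 168, 147, 148 and 145 CPM in Ag, and 262, 255, 287, 279 and 268 CPM in Ag+Costim. No library of one group entered the range of another, and Ag was lowest. Zap70 was 1.61-fold lower in Ag than in Naive (-0.69 ± 0.09, adjusted p = 3.83e-05) and 1.80-fold higher in Ag+Costim than in Ag (0.85 ± 0.07, adjusted p = 4.33e-07). Lat, the substrate of ZAP-70, measured 770 and 774 CPM in Naive, 669 to 773 CPM in Ag and 448 to 594 CPM in Ag+Costim, with a fall in Ag+Costim against Ag (-0.47 ± 0.09, adjusted p = 3.93e-04) and -0.11 ± 0.11 for Ag against Naive (adjusted p = 0.429).

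Lck has a distal promoter and a proximal one, and the 250 bases before each start are shown because transcripts from both were counted (GRCm38.p6, capitals as above, with TGTGGT marked too).
Lck distal (chr4:129573642-129573891, minus strand): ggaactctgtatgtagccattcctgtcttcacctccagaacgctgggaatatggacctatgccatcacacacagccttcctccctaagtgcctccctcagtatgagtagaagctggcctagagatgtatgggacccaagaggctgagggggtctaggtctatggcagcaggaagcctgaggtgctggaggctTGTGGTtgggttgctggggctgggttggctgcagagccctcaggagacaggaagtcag
Lck proximal (chr4:129558373-129558622, minus strand): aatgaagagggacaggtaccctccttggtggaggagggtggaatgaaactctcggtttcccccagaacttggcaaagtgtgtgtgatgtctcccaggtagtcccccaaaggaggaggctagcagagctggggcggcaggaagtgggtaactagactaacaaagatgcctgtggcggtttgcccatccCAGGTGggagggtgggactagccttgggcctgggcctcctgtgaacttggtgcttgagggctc
The distal window holds TGTGGT once, 58 bases before the start, and the proximal window CAGGTG once, 63 bases before it. Lck-202, the coding transcript that starts at base 129573641 of chromosome 4, held 86.2% and 83.3% of the Lck counts in Naive, 61.9%, 53.1%, 67.0%, 47.8% and 63.2% in Ag, and 51.9%, 61.4%, 64.9%, 75.0% and 69.4% in Ag+Costim. The 3 coding transcripts that start near 129558372 (Lck-201, Lck-206 and Lck-208) together held 9.84% and 11.9% in Naive, 32.5%, 42.8%, 28.9%, 44.5% and 32.4% in Ag, and 46.7%, 37.5%, 33.9%, 23.3% and 28.8% in Ag+Costim. Proximal shares were higher in every Ag and Ag+Costim library than in Naive, and Ag and Ag+Costim overlapped. This grouping by start site was made after the values had been seen and carries no test. Lck-208, whose coding sequence of 1560 bases is longer than the 1527 bases of Lck-201 and Lck-202, was the 1 member transcript called in Ag against Naive, where 1.57% of 41844 transcripts were called (relative log2 change 2.37, adjusted p = 0.0155). Its share varied from 7.06% to 33.2% in Ag and from 4.73% to 35.5% in Ag+Costim, in exchange with Lck-201, so the division between these 2 forms differed between replicates.

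Ptprc (chr1:138062861-138175708, minus strand) measured 1783 and 1964 CPM in Naive, 1200, 1256, 1216, 1240 and 1315 CPM in Ag, and 1514, 1744, 1717, 2004 and 1704 CPM in Ag+Costim. Ag was the lowest group in every library, and Naive and Ag+Costim overlapped. Ptprc was lower in Ag than in Naive (log2 fold change -0.59 ± 0.10, adjusted p = 4.22e-04) and 1.39-fold higher in Ag+Costim than in Ag (0.48 ± 0.08, adjusted p = 2.03e-04).

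For Ptprc, exons 4, 5 and 6 are included or skipped to give the CD45RA, RB and RC forms, and naive cells are known to include more of them than activated ones. They are shown because they define those forms (mm10, from GENCODE transcript Ptprc-207, minus strand).
Ptprc exon 4 (chr1:138122456-138122584): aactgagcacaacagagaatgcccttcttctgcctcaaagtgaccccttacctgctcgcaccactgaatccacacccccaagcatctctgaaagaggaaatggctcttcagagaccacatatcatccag
Ptprc exon 5 (chr1:138120020-138120166): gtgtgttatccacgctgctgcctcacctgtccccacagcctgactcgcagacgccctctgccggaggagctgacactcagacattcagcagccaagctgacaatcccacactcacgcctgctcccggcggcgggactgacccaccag
Ptprc exon 6 (chr1:138117754-138117894): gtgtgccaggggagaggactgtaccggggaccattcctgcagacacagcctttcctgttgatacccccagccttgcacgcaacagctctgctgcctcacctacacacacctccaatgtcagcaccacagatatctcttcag
Their lengths of 129, 147 and 141 bases are multiples of 3. The authors' Psi was 0.00984 in Ag and 0.0116 in Ag+Costim for exon 4, 0.295 and 0.295 for exon 5, and 0.0579 and 0.0455 for exon 6, so exon 5 was the most included in both groups. Psi of Naive cells was not analysed here. In the transcript counts, Ptprc-207 with all 3 exons held 19.3% and 15.7% in Naive, 4.95% to 12.6% in Ag and 9.33% to 21.9% in Ag+Costim. Ptprc-203 with none of them held 27.6% and 29.6% in Naive, 26.5% to 44.0% in Ag and 33.0% to 43.6% in Ag+Costim. The full-length form was lower in every Ag library than in Naive, and neither form passed the usage test. A share of 9.22% for Ptprc-207 in Ag (mean of 5 libraries) stands beside an exon 4 Psi of 0.00984, and these estimates of the same exons come from different programs and were not reconciled here. Of 91 internal exon nodes of the members, 87 had a Psi above 0.9 in both groups and none differed by more than 0.05 between them, the largest difference being 0.0230. Among all 119 nodes 6 differed by more than 0.05, all at transcript starts or ends. At the end of Ptprc, the node of 1359 bases had a Psi of 0.811 in Ag and 0.903 in Ag+Costim. The other end nodes of Ptprc are only 7 bases (0.160 and 0.0528) and 6 bases long (0.0293 and 0.0444). The end nodes of Cd247 of 1232 and 904 bases had 0.667 and 0.339 in Ag, and 0.581 and 0.419 in Ag+Costim. The start nodes of Cd8a had 0.650 and 0.350 in Ag, and 0.589 and 0.411 in Ag+Costim.

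**Figure D2:**
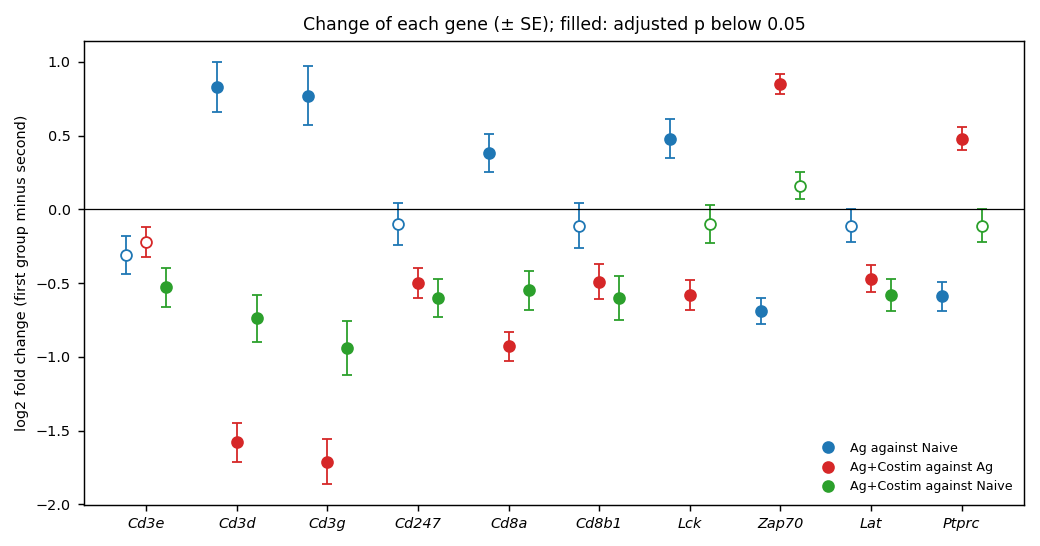
Log2 fold change (± SE) of each gene in the 3 comparisons, from edgeR's quasi-likelihood fit over all 12 libraries; filled points have an adjusted p below 0.05. Between Ag+Costim and Ag, 7 genes lie below 0 and 2 above 0 among the filled points, and Cd3e is open.

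Counted over the members, 4 were higher and 2 were lower in Ag than in Naive at an adjusted p below 0.05, where 24.2% of all 18817 genes were higher and 22.5% were lower. The higher genes were Cd3d, Cd3g, Cd8a and Lck, and the lower ones Zap70 and Ptprc, with a median over the 10 genes of -0.10 on the log2 scale beside 0.02 over all genes. With 2 Naive libraries, this count rested on each of them: without Naive replicate 1, Cd8a (adjusted p = 0.0832) and Lck (0.0746) were not called and 2 members were higher, and without Naive replicate 2, Cd3g was not called either (0.0852) and 1 was. After a correction for transcript length Cd3g (0.35, adjusted p = 0.116) and Ptprc (-0.11, adjusted p = 0.426) were not called, whereas Cd3e (-0.61), Cd247 (-0.37), Cd8b1 (-0.43) and Lat (-0.49) were lower. Cd8a was not called after a GC correction (0.29, adjusted p = 0.0758) or on log2(FPKM + 1) (0.16, adjusted p = 0.208), while Cd3e was lower under both (-0.40, adjusted p = 0.0230, and -0.49, adjusted p = 0.00571) and Lat on FPKM (-0.26, adjusted p = 0.0484).

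Between Ag+Costim and Ag, which share the antigen and differ in the agonist antibodies, 7 members were lower and 2 were higher, where 26.5% of all genes were lower and 26.6% were higher. The median over the members was -0.50 beside -0.05 over all genes. Upper-quartile scaling moved the median of all genes to -0.24 and the calls to 4056 higher and 6338 lower genes, from 5006 and 4979 under TMM. Under it Cd3e was also called lower (-0.41, adjusted p = 0.00423). The rise of Ptprc was 0.03 (adjusted p = 0.746) and the fall of Cd8b1 -0.24 (adjusted p = 0.0681) after the length correction. Leaving out any library in turn, Ag replicate 4 included, gave 7 or 8 lower and 2 higher members.

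Against Naive, 7 members were lower in Ag+Costim and 0 were higher, where 25.4% of all genes were lower and 26.9% were higher. The lower members were all 4 CD3 and ζ chain genes, both coreceptor genes and Lat. The 3 that did not pass were Lck, Zap70 (0.16 ± 0.09, adjusted p = 0.163) and Ptprc (-0.11 ± 0.11, adjusted p = 0.401). At an unadjusted p below 0.05 no further member was higher, and DESeq2 also called 0 higher. The median over the members was -0.57 beside -0.02 over all genes. On the authors' FPKM values, Lck (-0.47, adjusted p = 0.00499) and Ptprc (-0.40, adjusted p = 0.00672) were lower as well, by limma on log2(FPKM + 1). The comparisons of Ag with Naive and of Ag+Costim with Ag share the Ag libraries, so opposite signs in them are not independent observations.

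Levels can be compared between genes only per transcript length, which the authors' FPKM values allow (summed over the transcripts of a gene). In Naive cells Cd8b1 was the most abundant member at 1584 ± 51.8 FPKM (SD, n = 2) and Zap70 the least at 120 ± 0.308 FPKM. In Ag (n = 5) Cd3g led at 1655 ± 255 FPKM, ahead of Lck at 1410 ± 60.2 and Cd8b1 at 1302 ± 170 FPKM, and the libraries of Cd3g and Lck, and of Lck and Cd8b1, overlapped. In Ag+Costim (n = 5) the order was Cd8b1 at 900 ± 103, Lck at 808 ± 109, Cd3g at 494 ± 85.3, Cd3e at 454 ± 65.1, Ptprc at 436 ± 52.0, Lat at 396 ± 40.2, Cd3d at 301 ± 52.0, Cd8a at 192 ± 13.3, Cd247 at 156 ± 14.7 and Zap70 at 115 ± 4.86 FPKM. From Cd3g to Cd3d each gene overlapped its neighbour in that order, while the ends of this run were apart (Cd3g at 405 FPKM or more, Cd3d at 389 FPKM or less). Cd3d at 923 ± 87.6 and Cd3g stood above Cd3e at 530 ± 40.4 FPKM in Ag, while in Ag+Costim Cd3d was below Cd3e. Zap70 was the least abundant member in all 3 groups, with no overlap with Cd247, the next above it.

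**Figure D3:**
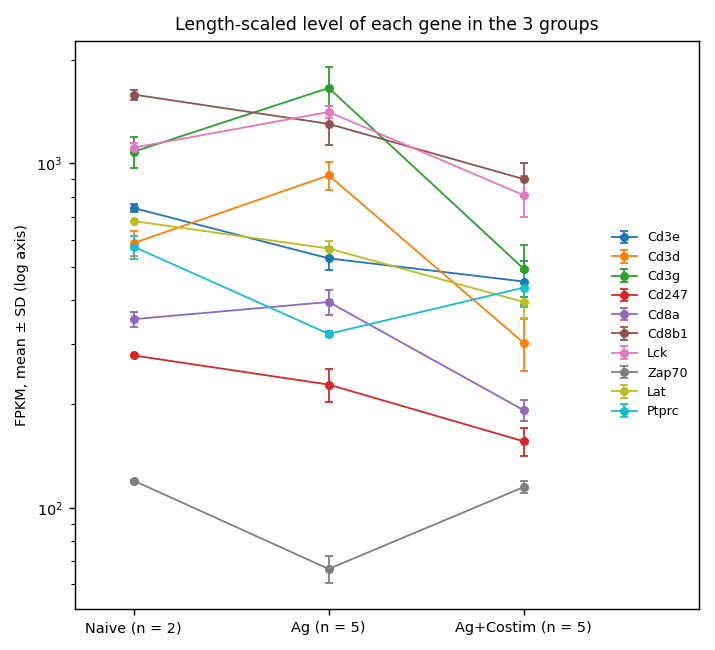
Mean FPKM (± SD) of each gene in Naive (n = 2), Ag (n = 5) and Ag+Costim (n = 5), on a log axis. Cd3d lies below Cd3e in Naive (587 and 742 FPKM), above it in Ag (923 and 530 FPKM) and below it in Ag+Costim (301 and 454 FPKM), and Zap70 is lowest throughout.

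The receptor chains that these proteins assemble with were read from a list of 19 genes, of which 18 passed the filter. In Ag against Naive 3 were higher and 9 lower, in Ag+Costim against Ag 14 were lower and 0 higher, and in Ag+Costim against Naive 16 were lower and 0 higher, with medians of -1.61, -1.49 and -3.35. Over all genes, 24.2% were higher and 22.5% lower in the first comparison, 26.6% and 26.5% in the second, and 26.9% and 25.4% in the last, with medians of 0.02, -0.05 and -0.02. Many of the listed chains are the nearly identical Trav14 copies described below. The counts and medians of the list are therefore not those of independent genes. The constant region of the α chain, Trac, measured 3582 and 3424 CPM in Naive, 1254 to 2272 CPM in Ag and 688 to 992 CPM in Ag+Costim. The groups followed one another downward without overlap, by -0.96 ± 0.18 (adjusted p = 6.24e-04) and then by -1.15 ± 0.14 (adjusted p = 1.38e-05). The β chain genes were higher in Ag than in both other groups. Trbc1 measured 1699 and 1696 CPM in Naive, 2221 to 2686 CPM in Ag and 763 to 998 CPM in Ag+Costim, and Trbc2 measured 3875 and 3579 CPM, then between 4994 and 7327 CPM, then between 2198 and 2787 CPM. Trbv12-1, the Vβ5 segment of the OT-I receptor, measured 1455 and 1436 CPM in Naive, 1789 to 2919 CPM in Ag and 774 to 1095 CPM in Ag+Costim. These 3 rose in Ag by 0.55 ± 0.12, 0.77 ± 0.15 and 0.76 ± 0.17. They fell in Ag+Costim against Ag by -1.55 ± 0.09, -1.37 ± 0.11 and -1.39 ± 0.13. Counts of Trac and of these β chain genes thus moved in opposite directions in Ag, and all were lowest in Ag+Costim. All 3 are read from β chain transcripts, so they are not independent observations. The cells carry transgenic receptor chains, and reads of these and of native genes were not told apart.

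The Vα2 segments belong to the Trav14 family, whose copies are nearly identical, so the division of counts between them is uncertain. Trav14d-1 and Trav14n-1 measured between 735 and 848 CPM in Naive, between 123 and 204 CPM in Ag and between 27.3 and 61.0 CPM in Ag+Costim. Both fell at each step, by -2.29 ± 0.22 and -2.27 ± 0.16 in Ag against Naive and by -1.87 ± 0.18 and -1.80 ± 0.14 in Ag+Costim against Ag. Trav14d-2 and Trav14n-2 were near 70 CPM in Naive (67.6 to 72.5) and at 2.79 to 4.37 CPM in Ag+Costim, with Trav14n-2 among the largest falls in Ag (-2.54 ± 0.19). Trav14-3 measured 33.4 and 31.1 CPM in Naive, 5.95, 6.27, 7.69, 0 and 7.14 CPM in Ag and 0 in 4 of the Ag+Costim libraries. The other Trav14 segments (Trav14-1, Trav14-2, Trav14d-3-dv8 and Trav14n-3) and Trbv12-2 were at or below 5.25 CPM in every library. Outside the αβ receptor, Trdc fell from 383 and 337 CPM in Naive to 152 to 210 CPM in Ag and 96.2 to 158 CPM in Ag+Costim, and Tcrg-C1 from 22.2 and 18.9 CPM to at most 1.15 and 0.721 CPM. Tcrg-C2 was at most 4.80 CPM. Tcrg-C4, at 16.7 to 59.2 CPM, did not pass the test in any comparison. Ptcra, the pre-T α chain of thymocytes, was the gene not tested, at or below 0.190 CPM.

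**Figure D4:**
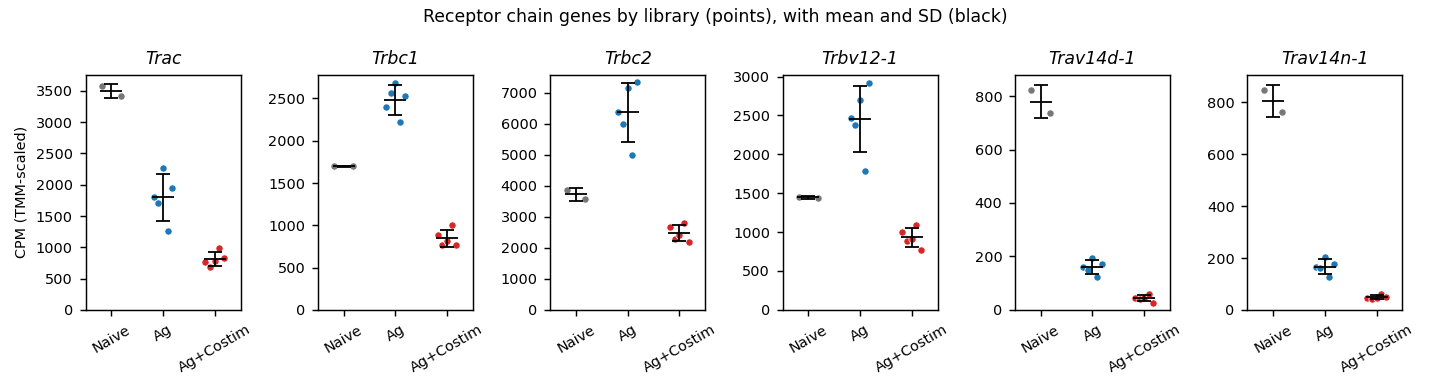
TMM-scaled CPM of 6 receptor chain genes by library, with linear axes from 0; points are libraries and black marks the mean and SD. The β chain genes (Trbc1, Trbc2, Trbv12-1) peak in Ag, while Trac and both Trav14 copies step down from Naive (735 CPM or more for the copies) to Ag+Costim (61.0 CPM or less for the copies).

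Transcripts annotated as retained introns were summed for each of the 9 members that have any. Cd8a-203 held 32.2% and 37.5% of the Cd8a counts in Naive, 25.6%, 29.3%, 23.6%, 32.2% and 26.8% in Ag, and 16.5%, 16.7%, 15.7%, 21.0% and 16.5% in Ag+Costim. The share of Ag+Costim was below both other groups in every library. For Cd3e the 3 such transcripts held 9.34% and 11.3% in Naive, 8.48% to 16.0% in Ag, and 4.35%, 4.94%, 4.42%, 4.50% and 4.22% in Ag+Costim. Here too Ag+Costim was separate, and the highest value was that of Ag replicate 4. For Lck the 4 such transcripts held 3.97% and 4.76% in Naive, 4.10% to 7.75% in Ag and 1.16% to 1.76% in Ag+Costim. For Zap70 they held 0.765% and 0.834%, 0.670% to 1.13%, and 0.260% to 0.509%. In these 4 genes of 9 the summed share was lower in every Ag+Costim library than in every Ag library and in 0 it was higher, beside 15.4% and 2.43% of 5709 genes with such transcripts. In Ag against Naive it was lower for 5 (Cd3d, Cd3g, Cd247, Cd8a and Lat), beside 33.3% of genes, and higher for 0, beside 4.33%. In Ag+Costim against Naive it was lower for all 9, beside 54.8%, and higher for 0, beside 1.98%. The median share over the 5709 genes was 4.99% in Naive, 3.16% in Ag and 2.32% in Ag+Costim, so this share was also lower over all genes. For Lat, whose Ag and Ag+Costim libraries overlapped, the share was 10.7% and 11.3% in Naive, 3.93% to 7.09% in Ag and 4.87% to 6.23% in Ag+Costim.

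**Figure D5:**
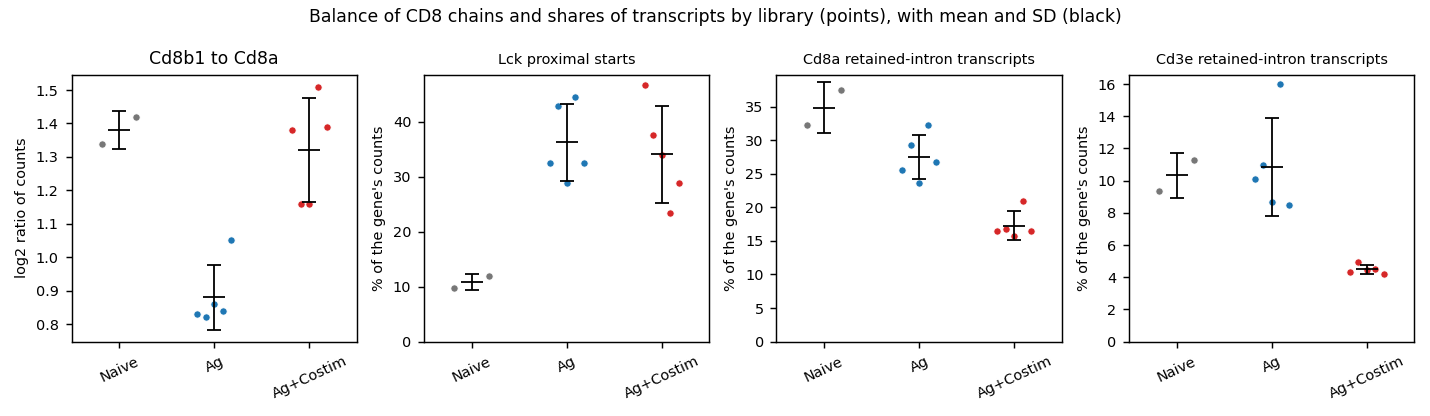
From left: log2 ratio of Cd8b1 to Cd8a counts, then the percent of the gene's counts in Lck transcripts from the proximal starts and in retained-intron transcripts of Cd8a and Cd3e, by library with mean and SD (black). The Cd8 ratio is lowest in Ag, the proximal Lck share is lowest in Naive (9.84% and 11.9%), and both retained-intron shares are lowest in Ag+Costim.

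Of 47 member transcripts tested for usage, 1 was called in Ag against Naive (1.57% of 41844 transcripts), 2 in Ag+Costim against Ag (2.41%) and 1 in Ag+Costim against Naive (1.17%). Lck-207, a retained-intron fragment of 450 bases, held 5.56%, 4.03%, 4.12%, 7.69% and 4.35% of the Lck counts in Ag and 1.32%, 1.07%, 1.11%, 1.67% and 1.57% in Ag+Costim. The groups were apart, with a relative log2 change of -1.88 (edgeR's diffSpliceDGE, adjusted p = 0.00787) and an exact permutation p = 0.00794 for the share. Cd247-203, a nonsense-mediated decay transcript, was called in both comparisons of Ag+Costim (adjusted p = 0.0204 and 0.00676) but had at most 1.04% of the Cd247 counts in any library and 0 in every Ag+Costim library, and its share did not differ from Ag by the exact permutation test (p = 1.00). Without Naive replicate 1, Naive replicate 2 or Ag replicate 2, Lck-208 was not called and 0 remained in Ag against Naive. Cd247-203 was not called in Ag+Costim against Ag without Ag replicate 1 or without any 1 of the Ag+Costim libraries, which left 1, and not in Ag+Costim against Naive without Naive replicate 2, which left 0, or without Ag replicate 1, where another transcript of Cd247 was called in its place. On simulated counts with the dispersion of these transcripts the usage test missed most changes and made false calls, so these calls are weak. Among 16 member transcripts with 5% or more of their gene, 5 did not overlap between Ag and Ag+Costim, beside 12.1% of 18647 such transcripts. Retained-intron forms of Cd3e, Cd8a and Lck were the 3 lower in Ag+Costim. The coding forms Cd3e-201 (at most 91.5% in Ag, at least 95.1% in Ag+Costim) and Cd8a-201 (31.5% to 35.9%, then 37.0% to 43.6%) were the 2 higher. Shares within a gene add up to a whole, so the rise of Cd3e-201 mirrors the fall of its retained-intron forms. These 5 are therefore not independent observations.

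Further genes of the pathway were taken from lists fixed by name. Of 10 other kinases of the receptor, 3 were higher and 5 lower in Ag against Naive, 4 higher and 1 lower in Ag+Costim against Ag, and 5 higher and 3 lower in Ag+Costim against Naive, with medians of -0.31, 0.17 and 0.30 beside 0.02, -0.05 and -0.02 over all genes. Of all genes 24.2% were higher and 22.5% lower in the first of these comparisons, 26.6% and 26.5% in the second, and 26.9% and 25.4% in the last, so the 3 higher kinases in Ag and the 3 lower ones against Naive were near the share of all genes. The Src kinases Fyn (1.20 ± 0.14) and Lyn (2.02 ± 0.35, from 3.29 to 13.3 CPM) rose in Ag, as did Lck itself. The Tec kinase Txk (-1.37 ± 0.14, from 360 to 139 CPM) fell. With costimulation Mapk3, which encodes ERK1, rose from 15.1 ± 1.75 to 50.7 ± 6.83 CPM (1.74 ± 0.12, adjusted p = 7.42e-08) and Tec fell (-0.86 ± 0.15). Syk, the relative of Zap70, was at 6.02 ± 2.03 CPM in Ag+Costim against 2.58 ± 1.17 CPM in Ag (1.23 ± 0.36, adjusted p = 0.0116), with overlapping libraries. Against Naive, Syk (2.56 ± 0.56) and Lyn (1.67 ± 0.34) were higher and Tec (-2.11 ± 0.18) and Txk (-1.63 ± 0.14) lower in Ag+Costim.

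Among 21 adaptors and effectors 7 were higher and 12 lower in Ag against Naive (median -0.40), and 8 were higher and 5 lower in Ag+Costim against Ag (median -0.00). Beside 24.2% higher and 22.5% lower of all genes in Ag and 26.6% and 26.5% with costimulation, the 5 lower adaptors were near the share of all genes. Trat1, a transmembrane adaptor of the receptor, fell from 52.7 to 1.95 CPM in Ag (-4.76 ± 0.33) and was at 2.61 CPM in Ag+Costim. Was, which encodes the actin regulator WASP, fell from 70.5 to 16.1 CPM in Ag (-2.13 ± 0.18) and was at 87.5 CPM in Ag+Costim (2.44 ± 0.16, adjusted p = 5.87e-08), with its partner Wipf1 also higher there (1.34 ± 0.11). Sh2d2a (1.10 ± 0.14) and Grap (0.99 ± 0.15) rose in Ag, and Tespa1 (-1.64 ± 0.12) and Grap (-0.74 ± 0.11) fell in Ag+Costim against Ag. In Ag+Costim against Naive 6 were higher, led by Sh2d1a (1.11 ± 0.23) and Sh2d2a (1.06 ± 0.14), and 9 lower, led by Trat1 (-4.33 ± 0.33) and Cd2ap (-1.73 ± 0.16), with a median of -0.08, where 26.9% of all genes were higher and 25.4% lower.

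Of 23 negative regulators, 9 were higher and 7 lower in Ag against Naive (median 0.12), 7 higher and 6 lower in Ag+Costim against Ag (median -0.07), and 8 higher and 4 lower in Ag+Costim against Naive (median 0.20). The shares over all genes were 24.2% higher and 22.5% lower, 26.6% and 26.5%, and 26.9% and 25.4%, so the regulators called with costimulation were near the share of all genes in both directions. Lime1 (2.57 ± 0.34) and Dusp22 (from 6.96 to 19.6 CPM, adjusted p = 1.12e-05) rose in Ag, and Pag1, which anchors the kinase that inhibits Lck (-1.41 ± 0.23), and the ubiquitin ligase gene Cbl (-1.03 ± 0.20) fell. With costimulation Ptprj (1.79 ± 0.18, from 1.40 to 4.86 CPM) and Cblb (0.77 ± 0.12) rose and Ubash3b (-1.14 ± 0.15) and Dgka (-0.73 ± 0.10) fell. Against Naive, Ptprj (2.76 ± 0.27) and Lime1 (2.23 ± 0.34) were higher and Pag1 (-1.33 ± 0.23) and Rasal3 (-1.16 ± 0.14) lower in Ag+Costim.

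The 21 genes of second messengers and downstream branches had 14 lower and 5 higher members in Ag against Naive (median -0.76), 5 lower and 9 higher in Ag+Costim against Ag (median 0.23), and 9 lower and 3 higher in Ag+Costim against Naive (median -0.33). Among all genes, 22.5% were lower and 24.2% higher, 26.5% and 26.6%, and 25.4% and 26.9%, so the 5 higher genes in Ag and the 5 lower ones with costimulation were near the share of all genes. Itpr1, a calcium channel of the endoplasmic reticulum, fell from 68.4 to 11.9 CPM in Ag (-2.53 ± 0.28) and rose to 37.3 CPM with costimulation (1.65 ± 0.24), while Itpr2 was lower in Ag+Costim than in Ag (-1.32 ± 0.20). Rasgrp1, the Ras activator downstream of LAT, fell from 340 to 92.8 CPM in Ag (-1.87 ± 0.15). Hras (1.27 ± 0.27) and Stim2 (0.94 ± 0.15) rose in Ag, and Orai1 fell (-0.67 ± 0.15) in Ag+Costim against Ag. In Ag+Costim against Naive, Stim2 (1.20 ± 0.15) and Hras (0.86 ± 0.27) were higher and Itpr2 (-2.59 ± 0.25) and Rasgrp1 (-1.69 ± 0.15) lower.

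Of 15 surface partners, 5 were higher and 0 lower in Ag against Naive (median 0.44), 3 higher and 7 lower in Ag+Costim against Ag (median -0.28), and 4 higher and 5 lower in Ag+Costim against Naive (median -0.09). All genes had 24.2% higher and 22.5% lower, 26.6% and 26.5%, and 26.9% and 25.4%, with medians of 0.02, -0.05 and -0.02, so the 4 higher partners against Naive were near the share of all genes. Ptprcap, which encodes a protein bound to CD45, rose from 436 to 1052 CPM in Ag (1.27 ± 0.15), while Ptprc itself fell. Cd48 rose as well (1.41 ± 0.14). With costimulation Cd82 (1.13 ± 0.10) and Cd44 (0.58 ± 0.09) rose, and Cd37 (-1.73 ± 0.15, from 396 to 120 CPM) and the costimulatory receptor gene Cd27 (-1.42 ± 0.11) fell. Against Naive, Cd44 (1.55 ± 0.13) and Cd48 (1.41 ± 0.14) were higher and Cd37 (-1.29 ± 0.18) and Cd53 (-1.05 ± 0.15) lower in Ag+Costim.

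The genes whose log2 CPM was most like that of 4 members were found among 9253 genes with a mean log2 CPM above 3, as Pearson's r over the 12 libraries, which share their groups. For Cd3e these were Tpst2, Vsir and Unc5cl (r = 0.96 each), and for Cd8a Sec62, Washc3 and Ssr4 (0.98 each). For Lck they were Slc35d2 (0.99), Hsd11b1 (0.99) and Mpp1 (0.98), and for Ptprc 9930111J21Rik1 (0.99), Pi4kb (0.98) and Rab11fip4 (0.98). None of the 12 was a member.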

How the data were processed

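RNA-seq of sorted OT-I CD8+ T cells was analysed in 12 libraries, grouped from the sample labels. Per the submitters' processing notes the authors used HISAT2 2.1.0, SAMtools 1.9, StringTie 2.1.0, R 4.0.5 and DESeq2 1.30.1 with mm10, and single-end reads of 100 bases came from SMART-Seq and Nextera XT libraries. The authors deposited StringTie count tables per gene and per transcript, which derive from coverage and carry no normalization. Transcript FPKM values, also deposited from StringTie, were added up per gene here. Psi was deposited by the authors as a fraction with 1 value per group, from Whippet; the deposited difference, probability and entropy columns were not used. The percentages and the number of reads in the deposited core sheet have no stated definition. The strand used in counting is not given in the sources used here.

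All 55536 annotated genes of 81881 entries were matched to GENCODE vM21. Counts were compared with edgeR 4.0.16 (R 4.3.3) by the robust quasi-likelihood test, two-sided, after TMM scaling and filterByExpr, with 1 term per group over 12 libraries and Benjamini-Hochberg adjustment over 18817 genes, at 0.05. SE is the log2 fold change divided by the square root of F. Usage of transcripts was tested with diffSpliceDGE, and single ratios and shares with exact permutation tests (scipy 1.17.1). limma 3.58.1 and DESeq2 1.42.0 served as alternatives, with others of scaling, filter, length, GC content, block and left-out libraries. The gene test was tested on simulated data and recovered most of the changes planted there, and the usage test recovered its planted changes only at low dispersion. The changes were planted in Ag+Costim alone, and those of the gene test were larger than most changes of the members. Recovery of smaller changes, and of changes between Ag and Naive, was therefore not tested. The members and lists were chosen with earlier results of these data known. Named were the members, all receptor chains tested, and from each list and comparison the 2 called genes that rose most and the 2 that fell most, given a mean log2 CPM over 1; some genes that this rule names are not reported here. Promoter sequences came from RefSeq (9 of 10 members matched) and exons from GENCODE. Tables were handled in Python 3.11.15 with pandas 2.3.3 and numpy 2.4.6, and plots drawn with matplotlib 3.10.9.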

Additional observations from a re-analysis of the deposited data

Results flagged for a closer look

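Among 44 sets of 5 libraries of the members' levels, Cd8 ratios and summed transcript shares, 3 had an extreme library by Dixon's test, and chance alone flags about 1 in 20. The CPM of Zap70 in Ag was highest in replicate 2 at 168 CPM, with the nearest other library at 148 CPM. The log2 ratio of Cd8b1 to Cd8a in Ag was highest in replicate 5 at 1.05, with the nearest other at 0.86. The share of the Cd8a retained-intron transcript in Ag+Costim was highest in replicate 4 at 21.0%, with the nearest other at 16.7%. The separations of groups named in the report were all read with these libraries included.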

How the results depend on the processing

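Of the alternatives to single members' changes, RLE scaling, DESeq2 and the absence of a low-count filter changed no call. The length correction gave 5 lower members in Ag against Naive and 1 higher in Ag+Costim against Ag, and turned Cd3e there to 0.03. With limma on log2(FPKM + 1) or log2(FPKM + 0.1), 4 members were lower in Ag against Naive, and without the filter on FPKM 2 were higher. All 3 FPKM settings put Zap70 at -0.06 in Ag+Costim against Naive, the GC correction put Ptprc there at 0.06, and FPKM in place of counts put the Cd8 ratio there at 0.06. The cause of these shifts was not tested. Leaving out 1 library gave 1 to 4 higher and 2 to 3 lower members in Ag against Naive, and 0 to 1, 1 to 2 and 0 to 1 called transcripts in Ag against Naive, Ag+Costim against Ag and Ag+Costim against Naive. Keeping only transcripts with 5% of the gene gave 0 in all 3 comparisons.

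Replicate numbers share only a number: deviations from the group means correlated at 0.30, 0.15, 0.11, -0.04 and -0.02 between Ag and Ag+Costim, and 3 of 5 Ag libraries correlated best with their own number. With the replicate block 2 members instead of 4 were higher in Ag against Naive, 1 member transcript was called in Ag+Costim against Ag and 0 in Ag+Costim against Naive. The block with the length correction gave 2 higher and 5 lower members in Ag against Naive, 1 higher in Ag+Costim against Ag, and Cd3e at 0.02 there. The Naive group of 2 libraries limits every comparison with it.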
